A study of Mus musculus with 4 samples.

Results

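Purine receptors and ectonucleotidases were followed in macrophages sorted from mouse gastrointestinal stromal tumours (GIST, a sarcoma of the gut wall). The set was a list of 10 genes: the P2Y receptors P2ry6, P2ry12, P2ry13 and P2ry14, the P2X channels P2rx4 and P2rx7, the adenosine receptors Adora2a and Adora2b, and the ectoenzymes Entpd1 and Nt5e. All their probe sets that carry 1 gene symbol in the platform annotation were taken, which gave 9 probe sets of 7 genes, out of 20380 probe sets of 12393 genes. P2ry13, Adora2a and Adora2b had no such probe set and were not analysed here. Of the other 7, 6 were bright enough to be tested and Nt5e was not.

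Tumour-bearing animals described as GIST mice were given vehicle, or drinking water with 600 mg/L imatinib, for 2 weeks. Imatinib blocks several tyrosine kinases, among them Kit, which drives most of these tumours, and the macrophage growth factor receptor Csf1r. The labels do not state strain, allele, age, the composition of the vehicle or the surface markers of the sort. According to the design text, sorted cells of 8 mice per group were combined, and each combined group was measured on 2 Affymetrix 3' expression arrays from 200 ng of total RNA. The sample titles call the same arrays biological replicates. If the arrays of a group come from 1 pool, the p-values below measure only the spread between arrays and not that between mice.

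ATP and other nucleotides leave stressed or dying cells and act on neighbouring cells. P2X receptors are cation channels opened by ATP, and P2Y receptors are G-protein-coupled receptors for ATP, ADP, UTP, UDP or UDP-sugars. On the cell surface Entpd1 (CD39) splits ATP and ADP to AMP, and Nt5e (CD73) splits AMP to adenosine, which acts on Adora2a and Adora2b to raise cyclic AMP. In macrophages these receptors are known for steering chemotaxis, phagocytosis and the release of interleukin-1, and adenosine for dampening inflammatory activation.

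The genes of the list lie partly side by side in the genome. In the mouse RefSeq annotation (GRCm38.p6), P2ry12, P2ry13 and P2ry14 all lie within the span of Med12l on chromosome 3, P2rx4 and P2rx7 are neighbours on chromosome 5, P2ry6 lies next to P2ry2 on chromosome 7, Entpd1 is on chromosome 19 and Nt5e on chromosome 9. RefSeq promoter sequences matched 8 of the 10 genes, with 13 annotated starts. The 250 bases before a start are shown for P2ry12, P2rx4 and Entpd1, which rose with imatinib, and for P2ry14, the neighbour of P2ry12. They are chr3:59262986-59263235 (minus strand) for P2ry12, chr3:59153493-59153742 (minus strand, 1 of 4 starts) for P2ry14, chr5:122707294-122707543 (plus strand) for P2rx4 and chr19:40659520-40659769 (plus strand) for Entpd1. Of the 2 Entpd1 starts the one whose window is clear of the gene Tctn3 was chosen. Capitals mark matches, on either strand, to GAGGAA (the core of the site of PU.1, the macrophage lineage factor), TGANTCA (AP-1) and CACGTG (E-box).
P2ry12: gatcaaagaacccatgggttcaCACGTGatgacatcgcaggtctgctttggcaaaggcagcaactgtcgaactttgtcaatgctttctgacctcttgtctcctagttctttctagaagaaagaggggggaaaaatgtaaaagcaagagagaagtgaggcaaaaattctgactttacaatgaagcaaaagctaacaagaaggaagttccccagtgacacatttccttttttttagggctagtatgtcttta
P2ry14: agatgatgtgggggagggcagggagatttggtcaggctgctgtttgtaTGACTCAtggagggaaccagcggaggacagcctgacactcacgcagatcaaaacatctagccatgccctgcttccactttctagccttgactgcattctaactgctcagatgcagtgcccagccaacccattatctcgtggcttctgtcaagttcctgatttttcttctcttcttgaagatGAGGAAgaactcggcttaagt
P2rx4: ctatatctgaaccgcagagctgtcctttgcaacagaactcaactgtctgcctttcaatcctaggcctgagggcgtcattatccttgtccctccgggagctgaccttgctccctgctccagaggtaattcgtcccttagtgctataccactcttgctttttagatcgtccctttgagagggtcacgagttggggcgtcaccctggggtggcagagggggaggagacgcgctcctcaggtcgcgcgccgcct
Entpd1: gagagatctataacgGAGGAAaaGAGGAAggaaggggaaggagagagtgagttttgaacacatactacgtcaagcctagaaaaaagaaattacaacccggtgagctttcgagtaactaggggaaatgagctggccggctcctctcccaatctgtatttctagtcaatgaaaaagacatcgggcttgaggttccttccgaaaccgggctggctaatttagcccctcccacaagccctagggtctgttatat

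The windows differed in what they held. The Entpd1 window held 2 copies of the PU.1 core, beginning 235 and 227 bases before the start. The window of the other Entpd1 start, not shown, held none of the 3 motifs. The P2ry14 window, that of start 1, held 1 copy of the PU.1 core, 21 bases before the start, and an AP-1 match at 202 bases. The AP-1 match depended on the start chosen. Start 2, not shown, had one at 144 bases, and starts 3 and 4 had none. Each of these windows held 1 copy of the PU.1 core, and those of starts 2 and 3 overlap. P2ry12 held only an E-box match, 228 bases before the start, and P2rx4 held none of the 3 motifs. Over 32841 promoter windows of the same length, 23.3% held the PU.1 core, 6.75% the AP-1 motif and 6.02% the E-box. The matches are descriptions of letters, and binding was not measured. The P2rx4 window was the richest in G and C of the 4 shown, at 57.2% with 13 CG pairs, against 41.6% and 3 CG pairs for P2ry12. The Entpd1 window not shown had 62.4% and 18 CG pairs.

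The values are MAS5 signals, a background-subtracted intensity scaled by the authors to a common mean on each array. They have no fixed unit and can be compared between arrays for 1 probe set, not between probe sets. Differences were taken as log2(signal + 32), imatinib minus vehicle, so that a fold given below understates a change in a dim gene. A gene was represented by its brightest probe set, was tested when that probe set's mean log2 level was no lower than the 40th percentile over the array's probe sets, and was called when limma's Benjamini-Hochberg adjusted p over all 8145 tested genes was below 0.05.

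P2ry6, P2ry12, P2rx4 and Entpd1 were higher with imatinib, by 1.28-fold to 1.48-fold, and none of the 6 tested members was lower (limma; 0 lower also at an unadjusted p under 0.05). Among all tested genes 6.8% were higher and 8.73% lower. P2ry14 had a difference in the same direction that did not pass, and P2rx7 had the only negative difference and did not pass. Both imatinib arrays lay above both vehicle arrays for 5 of the 6 tested members, which 26.1% of all tested genes did, and below for P2rx7, as did 29.9% of all tested genes. The median log2 difference of the 6 was 0.37, against -0.02 over all tested genes. With 1 array left out, 1 member was still called without vehicle replicate 1 or imatinib replicate 2, and 2 were without vehicle replicate 2 or imatinib replicate 1. Without limma's mean-variance trend none was called (adjusted p from 0.054 to 0.12 for the 4 members called above). At an unadjusted p under 0.05, 5 of the 6 tested were then higher and 1 lower. The share of all tested genes at that level was not counted in this fit. In the limma fit with the trend, 2287 of the 8145 tested genes passed that level in either direction, with 5 members higher and 0 lower. The macrophage identity genes on the same arrays differed by a mean of 0.45, which bears on each of these values and is taken up after the members.

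**Figure D1:**
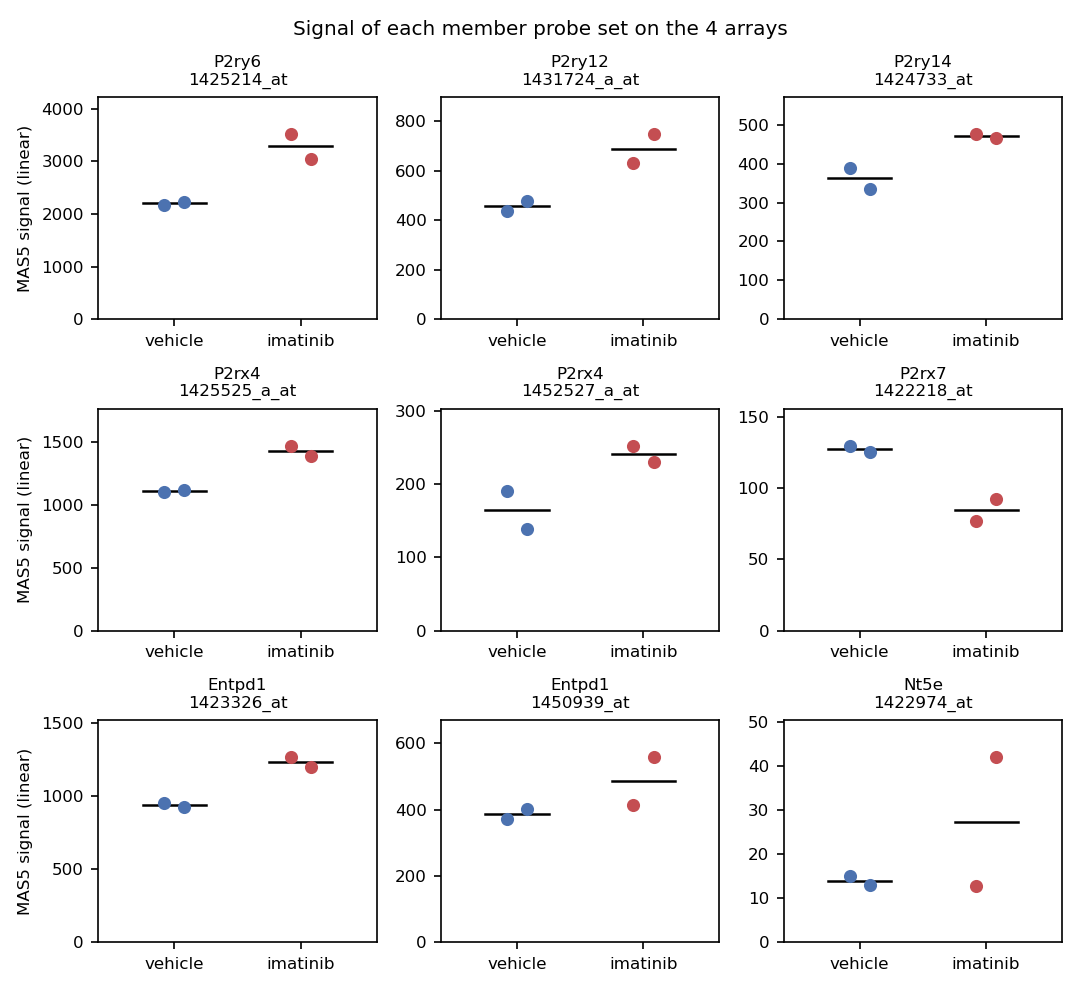
MAS5 signal (linear, y axis from 0) of each of the 9 member probe sets on the 2 vehicle arrays (blue) and the 2 imatinib arrays (red), with the group mean as a black line. The imatinib arrays lie above both vehicle arrays for P2ry6, P2ry12, P2ry14 and both probe sets of P2rx4 and of Entpd1, and below them for P2rx7. The groups overlap for Nt5e, whose signals are between 12.8 and 42.0.

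P2ry6 encodes the UDP receptor, which couples to Gq and is known for triggering engulfment by microglia and chemokine release by macrophages. With vehicle its signal was 2174 on 1 array and 2230.3 on the other, and with imatinib it was 3524 and 3055. The lower imatinib array stood well above the higher vehicle array. P2ry6 rose 1.48-fold (log2 0.57 ± 0.09, SE, n = 2 arrays per group, limma adjusted p = 0.0016), a difference close to that of P2ry12, and was 264th in order from the largest increase among the 8145 tested genes. It stayed called whichever array was left out (log2 0.47 to 0.67). The tested genes nearest to P2ry6 over the 4 arrays, by Euclidean distance between centred log2 values, were Gabarap (0.0359), Dennd5a (0.059) and Cd84 (0.0606). Gabarap encodes an autophagy protein and Cd84 a leukocyte surface receptor. Over 4 arrays many genes with such a difference lie close, and the distances are given only as a description.

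P2ry12 encodes the Gi-coupled ADP receptor of platelets and microglia, where it directs processes towards injured cells. The vehicle arrays read 437 and 479 and the imatinib arrays 630.5 and 749. The groups did not overlap, and the spread between the imatinib arrays (SD 83.8) was wider than that between the vehicle arrays (SD 29.7). The gene rose 1.47-fold (log2 0.55 ± 0.13, SE, limma adjusted p = 0.016). It missed the threshold without vehicle replicate 1 (limma adjusted p = 0.066) and without imatinib replicate 2 (adjusted p = 0.12), the array with the highest value.

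P2ry14, the receptor for UDP-glucose and other UDP-sugars, was at 390.4 and 336 with vehicle and at 477 and 466 with imatinib. The imatinib arrays were close together and above both vehicle arrays. The log2 difference was 0.35 ± 0.14 (SE, limma adjusted p = 0.12), which did not pass. With the array medians set equal it was 0.51 and passed (adjusted p = 0.022), on a scale where 12.9% of all tested genes were higher. Med12l, whose span contains P2ry12 and P2ry14, read 96.5 and 90.03 with vehicle and 99.98 and 116 with imatinib, a log2 difference of 0.16 ± 0.25 (SE, limma adjusted p = 0.73). It lay close to the brightness limit of the test, a signal of 79.8. Gpr34, a lysophosphatidylserine receptor related to P2ry12 and the only gene of its list of 4 with a probe set, was at 2240 and 2559 with vehicle and at 2850.04 and 3232 with imatinib, and rose (log2 0.34 ± 0.10, SE, limma adjusted p = 0.040; -0.11 and not called with the macrophage markers set equal).

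P2rx4 encodes an ATP-gated channel found largely on lysosomes of macrophages and microglia. Its brighter probe set read 1099.97 and 1115 with vehicle and 1468 and 1389 with imatinib. The vehicle arrays were nearly equal and both imatinib arrays stood above them. P2rx4 rose 1.28-fold (log2 0.36 ± 0.10, SE, limma adjusted p = 0.028). The second probe set read 190.2 and 139 with vehicle and 253 and 229.7 with imatinib. Its difference had the same sign (log2 0.49 ± 0.20, SE) and was not called when each probe set was tested on its own (adjusted p = 0.15), a fit in which 6.1% of 12483 probe sets were higher. The neighbouring gene Camkk2, which overlaps P2rx4, had signals of 611 and 598 with vehicle and 616 and 619 with imatinib (log2 0.03 ± 0.12, SE, limma adjusted p = 0.91).

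P2rx7 encodes the low-affinity ATP channel whose potassium efflux is the textbook trigger of the NLRP3 inflammasome. It was dim, at 129.8 and 125 with vehicle and at 77.2 and 92.5 with imatinib, against the limit of 79.8. Both imatinib arrays were below both vehicle arrays. The log2 difference was -0.45 ± 0.24 (SE, limma adjusted p = 0.26), which did not pass. P2rx4 and P2rx7, neighbours on chromosome 5, thus had differences of opposite sign, and the difference between them was not tested.

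Entpd1 encodes CD39, the ectoenzyme that removes ATP and ADP. The brighter of its probe sets was at 953 and 926 with vehicle and at 1264 and 1196 with imatinib, with no overlap. It rose 1.30-fold (log2 0.38 ± 0.10, SE, limma adjusted p = 0.026). The second probe set read 373 and 401 with vehicle and 414 and 558 with imatinib, so that 1 imatinib array was close to the vehicle arrays (log2 0.29 ± 0.16, SE, limma adjusted p = 0.28 in the probe set fit). With the mean of both probe sets Entpd1 was no longer called (adjusted p = 0.063). The calls of P2rx4 and Entpd1 were both lost whichever of the 4 arrays was left out, with limma adjusted p from 0.058 to 0.16 for P2rx4 and from 0.058 to 0.15 for Entpd1, while their log2 differences stayed between 0.32 and 0.42.

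Nt5e encodes CD73, which makes adenosine from the product of CD39. It was at 14.9 and 13.1 with vehicle and at 12.8 and 42.0 with imatinib. The groups overlapped, 1 imatinib array alone was higher, and all 4 signals were below the limit, so Nt5e was not tested. Tested without the brightness filter, Nt5e differed by 0.32 ± 0.29 on the log2 scale (SE, limma adjusted p = 0.60). A signal this low gives no direction.

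The differences of the called members, 0.36 to 0.57 on the log2 scale, were of about the size of the mean over macrophage markers, 0.45. Of 15 macrophage genes tested, 11 were higher and none lower (limma, 0 lower at an unadjusted p under 0.05). Among the higher were the engulfment receptor gene Mertk (log2 1.16) and the integrin gene Itgam (0.97). The other 4 were not called: Spi1 (0.16), Csf1r (0.12), C1qa (0.05) and C1qb (-0.09). The vehicle arrays had summed marker signals of 154095 and 154972, and the imatinib arrays had 184762 and 193388. When the mean of these markers was set equal on all arrays, which lowers each difference by 0.45, none of the members was called higher (limma; 0 higher at an unadjusted p under 0.05). P2ry6 was then at 0.12, P2ry12 at 0.10, Entpd1 at -0.07, P2rx4 at -0.09 and P2ry14 at -0.10. P2rx7 was at -0.90 and was called lower (limma adjusted p = 0.010), as were 62.3% of all tested genes on that scale, while 1.4% were higher. Itgam passed the brightness limit only through the imatinib arrays, with signals of 88.3 and 64.3 with vehicle and 157 and 202 with imatinib. Without it 10 of 14 markers were higher and their mean difference was 0.41, and with those 14 set equal no member was called higher (limma; 0 higher at an unadjusted p under 0.05) and P2rx7 was lower (adjusted p = 0.016). In a bulk sample, more macrophages in the sort and more of a transcript per macrophage cannot be told apart.

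**Figure D2:**
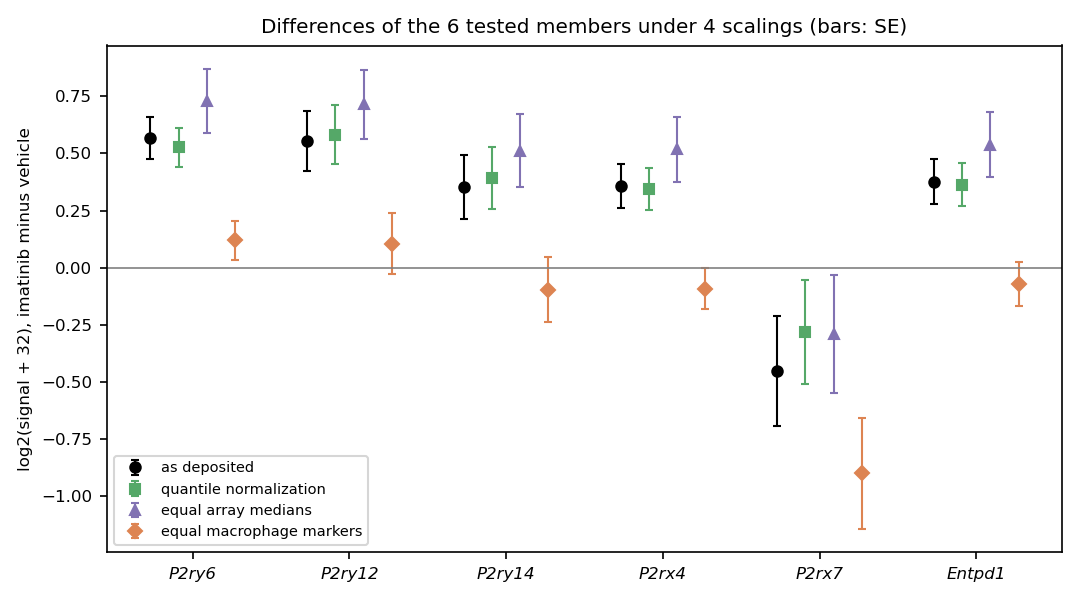
Difference in log2(signal + 32), imatinib minus vehicle (y axis), of the 6 tested members under the deposited scale and 3 other scalings, with SE as bars. The 5 members other than P2rx7 lie between 0.35 and 0.73 on 3 of the scalings and between -0.10 and 0.12 when the macrophage markers are set equal, where P2rx7 is at -0.90.

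Other cell types moved on the same arrays. Of 13 epithelial markers tested, 12 were lower and none higher (limma; 0 higher at an unadjusted p under 0.05), with a median log2 difference of -2.18; Krt19 (-2.89) and Dsp (-2.65) fell most. The summed epithelial signal on the vehicle arrays was 32949.5 and 33531, against 6546 and 6637 on the imatinib arrays. Of 11 fibroblast markers 7 were lower, among them Loxl1 (-1.51) and Pcolce (-1.35), and 1 was higher. Dendritic cells also carry purine receptors. Of 6 dendritic markers 3 were higher and none lower (0 lower at an unadjusted p under 0.05), with a summed signal of 946 to 982 against 1590.2 to 1798, among them the lectin gene Cd209a (1.48). Flt3, a cytokine receptor gene, was called too (1.14), but passed the brightness limit only through the imatinib arrays (131 and 152, against 30.8 and 66.2 with vehicle). Platelets are a known source of P2ry12. Of 5 platelet and erythroid markers tested 1, Pf4 (0.85), was higher and none lower (limma, 0 lower at an unadjusted p under 0.05). The list median was -0.26. The summed signal was 3775 to 3935 against 6104 to 6458, most of it from Pf4. The 2 untested genes of the list had signals from 5.29 to 52.9. Endothelium is known for high CD39. None of 7 endothelial markers was called (limma; 0 at an unadjusted p under 0.05), and their summed signal was 1462 to 1553 against 1401 to 1442. Of 5 monocyte markers 3 were higher and none lower (limma, 1 lower at an unadjusted p under 0.05). Among the higher were the clotting factor gene F13a1 (0.93) and Chil3 (0.83). The other 2, Ccr2 (-0.21) and Plac8 (-0.27), had negative differences and were not called. The list summed to 7408 to 7711 against 7950 to 8164. Of 3 neutrophil markers 2 were higher and none lower (0 lower at an unadjusted p under 0.05), Csf3r (0.70) and S100a8 (0.91), the latter passing the limit only through the imatinib arrays, and the list summed to 535 to 616 against 872 to 908. Of 6 NK markers 2 were higher and none lower (0 lower at an unadjusted p under 0.05), the granzyme gene Gzma (0.54) and the receptor gene Klrd1 (0.46), with sums of 2066 to 2113 against 2657 to 2718. Of 5 B cell markers Cd22 (0.84) and Cd79b (0.38; -0.07 with the macrophage markers set equal) were higher and Ighm (-0.62) was lower, while none of 9 T cell and none of 2 mast cell markers was called (limma; 0 at an unadjusted p under 0.05). In the smooth muscle list and in that of GIST and Cajal cells, each with 3 markers tested, 1 was lower, Acta2 (-0.82) and Kit (-0.64), and none higher (0 higher at an unadjusted p under 0.05). The part of these cell types in the members' values was not tested.

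**Figure D3:**
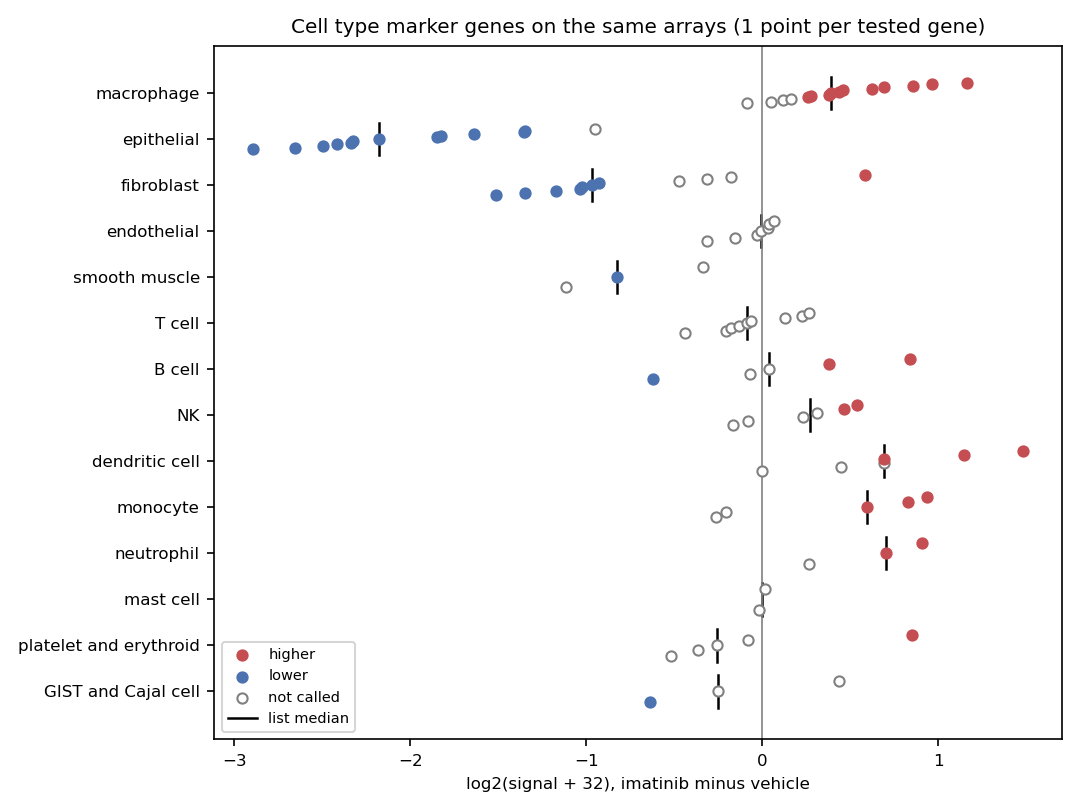
Difference in log2(signal + 32), imatinib minus vehicle (x axis), of each tested marker gene of 14 cell type lists (y axis), filled where limma called it higher (red) or lower (blue), with the list median as a black line. Macrophage markers have a median of 0.39 and epithelial markers one of -2.18.

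RNA integrity was read from the Gapdh controls, whose ratio of 3' over 5' signal rises as RNA is degraded. The vehicle arrays had ratios of 2.91 and 2.76, and the imatinib arrays had lower ones, 2.34 and 2.09. The part of this difference in the members' values was not tested.

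Other purine receptors were too dim to test. Of 11 listed genes 7 had a probe set, and all 7 had a mean log2 level below the brightness limit, with signals from 1.58 to 101, although P2ry4 read 101 and 94.3 on the vehicle arrays against 36.8 and 87.3 on the imatinib arrays. P2ry2, the ATP and UTP receptor next to P2ry6 on chromosome 7, read 9.59 and 4.71 with vehicle and 4.75 and 4.55 with imatinib. At such signals no direction can be read for P2ry2.

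Among the other nucleotide ectoenzymes, 1 of 7 tested genes was lower and none higher (limma; 0 higher at an unadjusted p under 0.05), with a median of 0.04. The lower gene was Entpd5, an intracellular relative of CD39 that hydrolyses UDP in the endoplasmic reticulum. It read 396 and 407 with vehicle and 149.7 and 168 with imatinib, far apart (log2 -1.19 ± 0.16, SE, limma adjusted p = 0.00052). Entpd1 and Entpd5 thus changed in opposite directions on the deposited scale. Epithelial and fibroblast markers fell on the same arrays, and their part in the fall of Entpd5 was not tested.

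Genes that take up or metabolise adenosine showed 1 higher and 2 lower calls among 14 tested, with a median of 0.07. Adk, the kinase that turns adenosine back into AMP, fell from 1995 and 1939.9 with vehicle to 797 and 963 with imatinib (log2 -1.14 ± 0.11, SE, limma adjusted p = 3.9e-05). Ahcy, which releases adenosine from S-adenosylhomocysteine, fell by 0.57 on the log2 scale. Hprt, a purine salvage enzyme, had a log2 difference of 0.29 and was called higher (limma adjusted p = 0.032), or -0.16 and not called with the macrophage markers set equal. Of 7 genes for nucleotide release 1 was higher and 2 were lower. The gap junction gene Gja1 fell from 5736 and 6061 to 2113 and 2059 (log2 -1.48 ± 0.08, SE, limma adjusted p = 5.2e-07), the mitochondrial channel gene Vdac1 fell by 0.54, and Calhm2 rose by 0.44 (-0.01 with the macrophage markers set equal). Epithelial and fibroblast markers fell on the same arrays, by medians of -2.18 and -0.97, and their part in these falls was not tested. With the array medians set equal Ahcy and Vdac1 were no longer called.

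Downstream of P2rx7, 2 of 9 tested inflammasome genes were higher and none lower at the adjusted threshold (limma). At an unadjusted p under 0.05, 4 were higher and 3 lower. Of all 8145 tested genes, 2287 passed that unadjusted level in either direction. Il1b, the cytokine released through this pathway, rose from 10021 and 10688 to 17408 and 16405 (log2 0.71 ± 0.07, SE, limma adjusted p = 8.2e-05) and stayed higher with the macrophage markers set equal (0.26). Txnip rose by 0.33 on the log2 scale (-0.12 with the markers set equal). The sensor gene Nlrp3 (0.24, limma adjusted p = 0.29) and the protease gene Casp1 (-0.26, adjusted p = 0.11) did not pass. P2rx7 itself had a negative difference on these arrays.

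The signalling parts shared by P2Y receptors, the G protein and effector genes, showed 2 lower and no higher calls among 12 tested (limma; 0 higher at an unadjusted p under 0.05), with a median of 0.07. The lower genes were Gna11, the alpha subunit of a Gq-class G protein (log2 -0.98 ± 0.14, SE), and the calcium release channel gene Itpr3 (-0.75 ± 0.22), which was not called with the array medians set equal. In the cyclic AMP pathway, through which A2 adenosine receptors act, 4 of 13 tested genes were higher and 1 lower, with a median of 0.32. Crem, a transcription factor gene that cyclic AMP induces, rose from 185 and 151 to 386 and 345 (log2 0.99 ± 0.17, SE, limma adjusted p = 0.0026). The orphan nuclear receptor gene Nr4a1 rose by 0.84 and the phosphodiesterase gene Pde4b by 0.81. These 3 stayed higher with the macrophage markers set equal, at 0.54, 0.39 and 0.36. The adenylyl cyclase genes differed from each other: Adcy7 rose by 0.33 (-0.12 with the markers set equal) and Adcy6 fell by 0.83. The part of epithelial and fibroblast cells, whose markers fell, in the falls of Gna11, Itpr3 and Adcy6 was not tested. The receptors Adora2a and Adora2b themselves were not analysed, and many other signals act through cyclic AMP.

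P2ry12 and Gpr34 are often listed with genes of microglia and other resident macrophages. Of 7 such genes tested, 3 were higher and none lower (limma; 0 lower at an unadjusted p under 0.05), with a median of 0.29. The fractalkine receptor gene Cx3cr1 rose from 7503 and 7660.03 to 9506 and 9418 (log2 0.32 ± 0.07, SE, limma adjusted p = 0.012), Gas6, a ligand of Mertk, by 0.38 and the Fc receptor-like gene Fcrls by 0.29. None of the 3 was called with the macrophage markers set equal, where Cx3cr1 was at -0.13, Gas6 at -0.07 and Fcrls at -0.15. Tmem119 had the only negative difference of the 7 (-0.22) and was not called. With the macrophage markers set equal it was at -0.67 and was called lower, as were 62.3% of all tested genes. Sall1, a factor that defines microglia, was below the limit with signals from 6.29 to 14.3.

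**Figure D4:**
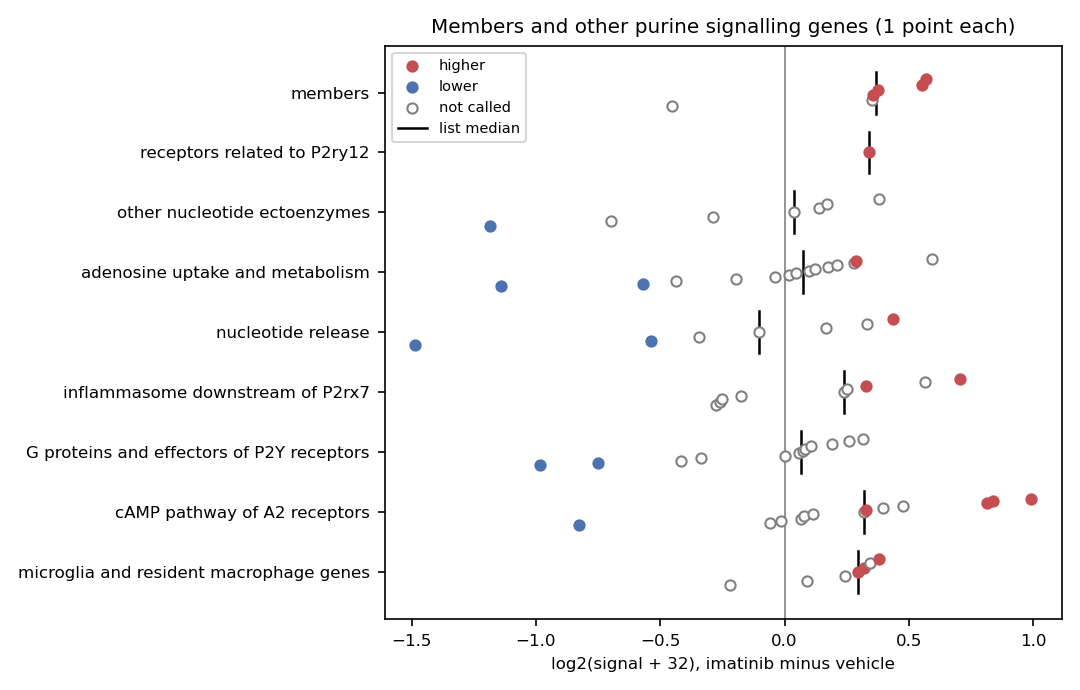
Difference in log2(signal + 32), imatinib minus vehicle (x axis), of the 6 tested members and of each tested gene in 8 related lists (y axis), filled where limma called it higher (red) or lower (blue), with the list median as a black line. The members' median is 0.37, that of the cyclic AMP list 0.32 and that of the nucleotide release list -0.10.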

How the data were processed

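The authors deposited MAS5 signal intensities, and the submitters' processing notes name MAS5 and Affymetrix Expression Console, without a version or settings. Scaling ties all genes of an array to its mean (500.3 on each after trimming), so a fall of abundant transcripts lifts others. Of 22626 probe sets without controls, 691 had several gene symbols and 1555 none, and were not named. Gene symbols of members matched RefSeq (GRCm38.p6) by Entrez ID.

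The groups (2 arrays each) were compared with limma 3.58.1 in R 4.3.3 (lmFit and trended eBayes, two-sided tests) on log2(signal + 32), with Benjamini-Hochberg adjustment over 8145 genes. Precision is limited by having 2 arrays per group. The procedure was tested on simulated data. Members, gene lists and tests were chosen with earlier results of these data known. Named genes are the members, up to 4 called genes of each list by size of difference (2 in cell type lists), and the 3 genes nearest to the called member with the largest difference on this scale, P2ry6. Med12l, Camkk2 and P2ry2 were chosen by position. Adcy7, Nlrp3, Casp1, Sall1, P2ry4, Cd79b, Spi1, Csf1r, C1qa, C1qb, Ccr2, Plac8 and Tmem119 were chosen after their values were seen. Alternatives were pseudocounts of 1 and 64, no filter or the 60th percentile, other scalings, probe set summaries and variance models, a block for the replicate number, and leaving out single arrays. Figures used Python 3.11.15 and matplotlib 3.10.9.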

Additional observations from a re-analysis of the deposited data

How the results depend on the processing

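With the macrophage markers set equal, 0 members were higher and 1, P2rx7, was lower (limma; 0 higher at an unadjusted p under 0.05), and 5187 genes were called in all, 114 of them higher; P2ry14 (-0.10), P2rx4 (-0.092) and Entpd1 (-0.073) changed sign. With only the markers bright in both groups set equal, added after seeing the data, 0 members were higher (0 at an unadjusted p under 0.05), 1 was lower and 4600 genes were called, and P2ry14 (-0.060), P2rx4 (-0.055) and Entpd1 (-0.036) changed sign. P2ry12 had a larger difference than P2ry6 with a pseudocount of 1 (0.58 against 0.575), with quantile normalization (0.58 against 0.53) and without vehicle replicate 2 or imatinib replicate 1. Without the mean-variance trend 716 genes were called and 0 members (5 higher and 1 lower at an unadjusted p under 0.05). The limma adjusted p was then 0.054 for P2ry6, 0.074 for P2ry12, 0.12 for P2rx4 and 0.11 for Entpd1. With each array left out in turn, 1 to 2 members were higher; the lone array of a group is then assumed to vary like the others. When each probe set was tested on its own, 4 of 8 were higher, and 1 of 9 without the brightness filter. With array medians set equal 5 members were higher, and 68.09% of all calls were higher, against 43.79% on the deposited scale. The other settings called 3 or 4 members higher and 0 lower. Replicate numbers of the titles need not pair the arrays, and deviations of same-numbered arrays correlated at -0.13. With the replicate block 1065 genes and 3 members were called, P2rx4 not (limma adjusted p = 0.055); with the crossed pairing, added after seeing the data, 1962 genes and 4 members were called. The 60th percentile filter leaves out P2rx7. Dim signals limit P2rx7 and Nt5e. The cause of these changes was not tested.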
